A study of Oryza sativa Japonica Group with 24 samples.

Results

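The silicon transporter genes LSI1, LSI2 and LSI6 of rice (Oryza sativa Japonica) were followed through the roots and shoots of seedlings that differed in phosphate (Pi) supply or in genotype. They were chosen by their locus identifiers, with earlier results of these data known, and make up 3 of the 57668 genes in the deposited expression table. Messenger RNA had been sequenced from 8 groups of 3 libraries each, 24 in all, and each library came from 3 pooled seedlings. The groups were a line overexpressing the transcription factor gene bHLH6 (bHLH6-OV) at high Pi, an spx4 mutant with a T-DNA insertion at high Pi, wild type (WT) at low Pi and WT at high Pi, each as roots and as shoots. High Pi was 200 µM and low Pi was 10 µM, supplied for 2 weeks from an age of 7 days. The labels name a single overexpressing line and a single mutant, without the promoter of the transgene, so that an effect of the gene and one of the line cannot be told apart. All groups carry the strain label Japanese rice, and the WT high Pi libraries serve as the control of 3 of the comparisons below.

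Rice takes up silicic acid from the soil in large amounts and deposits it as silica in its leaves and husks. LSI1 is a channel of the NIP class of aquaporins that lets silicic acid enter root cells, and LSI2 is an efflux transporter that moves it out of the same cells towards the xylem. Both proteins lie in the exodermis and endodermis of the root, on opposite sides of the cell. LSI6, a second NIP channel close to LSI1, unloads silicic acid from the xylem in leaves and nodes and is also present in root tips. LSI1 and LSI2 are further known as the entry path of arsenite into rice.

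LSI1 (LOC_Os02g51110) lies on chromosome 2 from 31266245 to 31269960 on the plus strand, and the deposited table describes it as aquaporin-like. LSI2 (LOC_Os03g01700) lies on chromosome 3 from 430478 to 432878 on the minus strand and is described as having a citrate transporter-like domain. LSI6 (LOC_Os06g12310) lies on chromosome 6 from 6648387 to 6653005 on the minus strand and is described as aquaporin-like. These positions are those of the deposited table, whose genome build is not given in the sources used here. The lengths used to scale the reads were 1516 bases for LSI1, 2306 for LSI2 and 1544 for LSI6.

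Reads assigned to genes numbered between 21.0 and 29.6 M per library. In roots the targeted genes followed their labels. The bHLH6 gene stood at 115 to 164 FPKM (fragments per kilobase of gene length, scaled to the depth of the library) in bHLH6-OV roots, against 3.24 to 5.66 in WT high Pi roots. SPX4 stood at 5.21 to 6.73 FPKM in spx4 roots, against 11.1 to 11.4 in WT high Pi roots. In shoots bHLH6 averaged 105 FPKM in bHLH6-OV, but also 23.0 in spx4 and 55.4 in WT at low Pi, against 5.24 in WT at high Pi. SPX4 averaged 7.67 FPKM in spx4 shoots, against 13.8 in WT high Pi shoots. IPS1, a non-coding RNA induced by Pi starvation, stood at 1424 to 1780 FPKM in WT roots at low Pi, against 1.07 to 2.26 at high Pi. The summed level of 7 root markers was 1279 to 2448 FPKM in roots and 2.44 to 4.50 in shoots, and RCc2, 1 of the 7, had almost no reads in either tissue. In roots this sum was mostly the marker RCc3, which averaged 2247 FPKM in WT at high Pi, where the sum was 2273 to 2448. Of the 7 markers, 4 averaged at least 1 FPKM in WT low Pi roots, and 6 did so in each other root group. One library, WT low Pi shoot replicate 1, differed from its 2 fellow replicates (bHLH6 at 9.25 FPKM, against 83.1 and 73.8). For LSI1, LSI2 and LSI6, values without it are given where they bear on a result.

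LSI1 and LSI2 were among the most abundant transcripts of the root. At high Pi in WT, LSI1 averaged 942 ± 30.1 FPKM in roots, against 26.6 ± 1.92 in shoots (mean ± SD, n = 3 each). LSI2 averaged 782 ± 35.8 FPKM in WT roots and 0.219 in WT shoots (n = 3 each). LSI6 averaged 90.0 ± 9.69 FPKM in WT roots, against 25.3 ± 2.78 in WT shoots (SD, n = 3 each). By mean FPKM, LSI1 ranked 38, LSI2 ranked 44 and LSI6 ranked 997 among the 33668 genes above 0 in WT roots, whereas in WT shoots LSI1 ranked 4039 and LSI6 ranked 4253 of 31226. All 3 genes were higher in roots than in shoots, by log2 fold changes of FPKM + 1 of 5.10 for LSI1, 9.33 for LSI2 and 1.79 for LSI6 (limma adjusted p = 2.68e-14, 5.12e-18 and 9.09e-09). A gene was called, here and below, when its limma adjusted p was under 0.05, and in this comparison 84.5% of all genes tested were called.

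Set against the mean root level of the same group, the mean shoot level of LSI1 was 1.40% in bHLH6-OV, 3.35% in spx4, 1.89% in WT at low Pi and 2.82% in WT at high Pi. For LSI6 the shoot level was 68.4% of the root level in bHLH6-OV, 31.0% in spx4, 67.4% in WT at low Pi and 28.1% in WT at high Pi. LSI2 did not exceed 0.0883% in any group. LSI3, a root efflux transporter related to LSI2, was at most 0.0695%, and CASP1, a protein of the Casparian strip of the endodermis, at most 0.0538%. LSI2 in shoots rested on 0, 43 and 5 reads in bHLH6-OV, on 7, 3 and 13 in spx4, on 50, 7 and 2 in WT at low Pi and on 5, 15 and 13 in WT at high Pi. The 2 shoot libraries with the most LSI2 reads, bHLH6-OV replicate 2 and WT low Pi replicate 1, also had the most LSI3 reads, 8 and 6. The root marker RCc3 had 8 and 7 reads there, within its range of 0 to 10 over the shoot libraries, and CASP1 had 0 in both. The root barrier gene ABCG5 had 1 read in bHLH6-OV replicate 2 but 109 in WT low Pi replicate 1, whose fellow replicates had 20 and 8. The root marker AMT1;2 had 0 and 10 reads, against 4 and 6 in the other WT low Pi shoots. The part of root RNA in these reads was not tested. LSI1 in shoots rested on 271 to 986 reads per library.

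**Figure D1:**
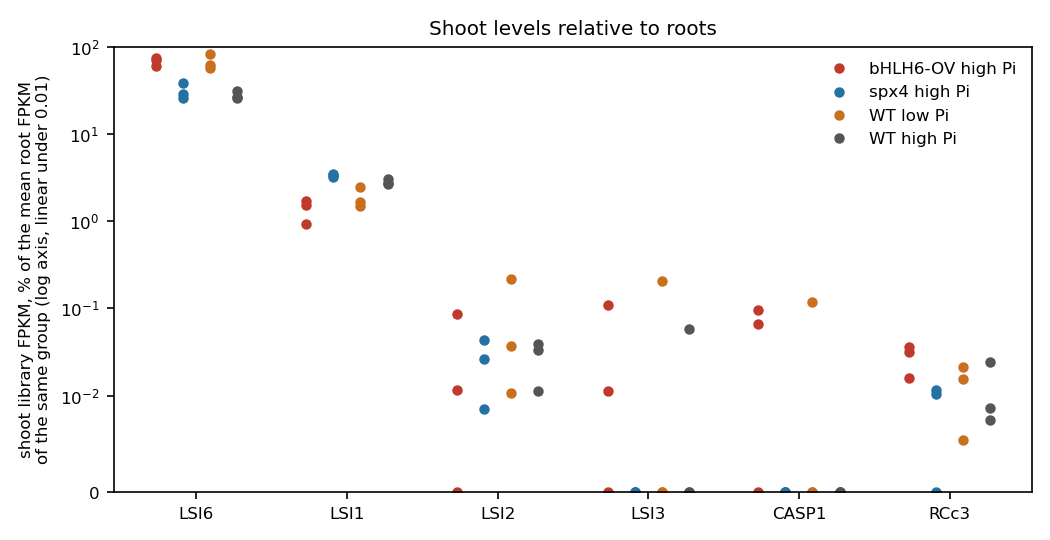
FPKM in each shoot library as a percentage of the mean root FPKM of the same group (vertical axis, logarithmic above 0.01), for the 3 members, LSI3, CASP1 and the root marker RCc3, coloured by group. LSI6 lies highest, LSI1 at a few percent, and LSI2, LSI3, CASP1 and RCc3 near the lower end, where points on the base line are libraries at 0.

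In roots the influx and efflux genes were lower at low Pi, and neither bHLH6-OV nor spx4 was called different from WT for any of the 3 genes. LSI1 stood at 335, 720 and 581 FPKM in WT low Pi roots, against 925, 925 and 977 in WT high Pi roots. LSI2 stood at 257, 557 and 441 FPKM in low Pi roots, against 746, 785 and 817 in high Pi roots. Every low Pi library was below every high Pi library for both genes, and replicate 1 was the lowest of the low Pi roots for both. The share of all genes without overlap between groups was not counted, here or below. LSI1 was lower by a log2 fold change of -0.86 (SE 0.24, 95% interval -1.38 to -0.34, limma adjusted p = 0.018, lower in 3 of 3 libraries). LSI2 was lower by -0.97 (SE 0.24, interval -1.49 to -0.46, limma adjusted p = 0.00923, lower in 3 of 3 libraries). Without WT low Pi root replicate 1 the change of LSI1 was -0.54 (limma adjusted p = 0.0356) and that of LSI2 was -0.66 (limma adjusted p = 0.0141), and without WT high Pi root replicate 3 the call of LSI1 ended (-0.83, limma adjusted p = 0.0571). The sum of 45 photosynthetic shoot markers was 31.0 to 64.1 FPKM in low Pi roots, against 160 to 202 in high Pi roots. Of the 19 tested markers 15 were called lower and 1 higher, beside 31.4% of all genes called in either direction. The part of these shoot markers in the values of LSI1 and LSI2 was not tested. In bulk tissue, fewer cells of a type and less RNA per cell cannot be told apart.

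LSI6 did not follow the other members in low Pi roots. It stood at 112, 94.2 and 123 FPKM at low Pi, against 78.8, 96.1 and 94.97 at high Pi. The groups overlapped, and the log2 fold change of 0.28 was not called (interval -0.10 to 0.67, limma adjusted p = 0.244). Thus 2 of the 3 members were called lower in low Pi roots, where 31.4% of all 22090 genes tested were called in either direction.

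In bHLH6-OV roots LSI1 stood at 1448, 1220 and 1065 FPKM, above the 3 WT high Pi libraries. LSI2 stood at 1074, 858 and 831 FPKM, also above the 3 WT libraries. LSI6 stood at 71.6, 75.8 and 52.4 FPKM, below the 3 WT libraries. None of the members passed the test. The log2 fold changes were 0.39 for LSI1 (interval -0.13 to 0.91, limma adjusted p = 0.282), 0.23 for LSI2 (interval -0.29 to 0.74, limma adjusted p = 0.544) and -0.44 for LSI6 (interval -0.83 to -0.06, limma adjusted p = 0.107). LSI6 alone had an unadjusted p under 0.05 (0.0286), and 18% of all genes were called in this comparison. The sum of the 45 shoot markers was 465 to 615 FPKM in bHLH6-OV roots, against 160 to 202 in WT roots, with 16 of the 19 tested markers called higher, 1 of which passed the filter only through bHLH6-OV, and its part in these values was not tested.

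In spx4 roots LSI1 stood at 1107, 1098 and 848 FPKM and LSI2 at 834, 789 and 630, and both ranges overlapped with WT. LSI6 stood at 71.9, 102 and 104 FPKM, again across the WT range. The log2 fold changes were 0.10 for LSI1 (interval -0.42 to 0.62), -0.07 for LSI2 (interval -0.58 to 0.45) and 0.03 for LSI6 (interval -0.36 to 0.42), with limma adjusted p = 0.931, 0.958 and 0.979. No member was called and none had an unadjusted p under 0.05 in limma, where 2.46% of all genes were called. The sign for LSI2 and LSI6 turned when single libraries were left out.

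**Figure D2:**
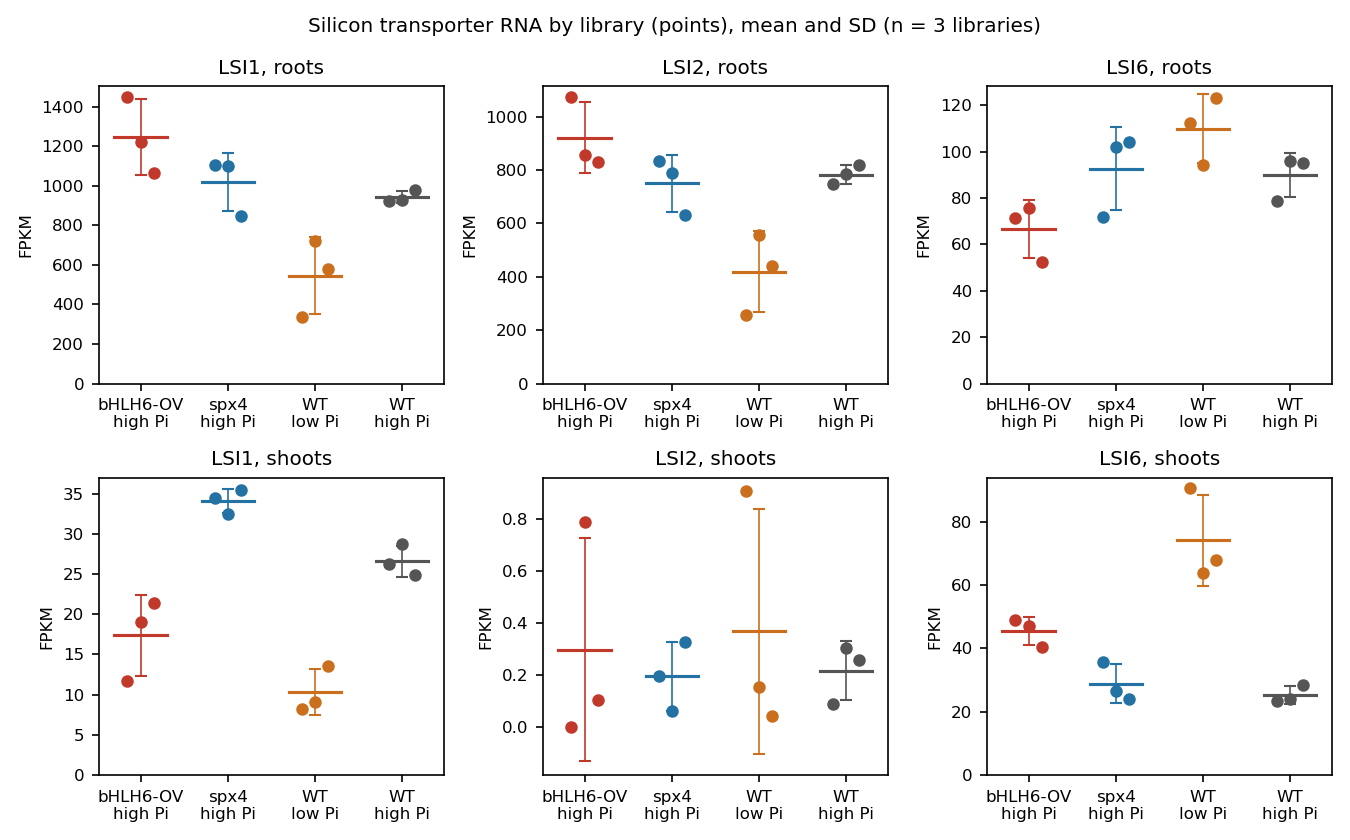
FPKM of LSI1, LSI2 and LSI6 in every library (points) with the group mean (line) and SD (bar, n = 3), roots above and shoots below. LSI1 and LSI2 in roots are lowest in WT at low Pi, in shoots WT at low Pi is lowest for LSI1 and highest for LSI6, and LSI2 in shoots stays under 1 FPKM.

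Between the lines, LSI1 and LSI2 did not differ in spx4 roots from bHLH6-OV roots beyond the spread, with log2 fold changes of -0.29 for both (intervals -0.81 to 0.23 and -0.81 to 0.22, limma adjusted p = 0.511 and 0.499). LSI6 was at 0.47 (interval 0.08 to 0.86, limma adjusted p = 0.142, unadjusted p = 0.0213). In that comparison 6.58% of all genes were called. Against WT low Pi roots, spx4 roots had higher LSI1 by 0.96 and higher LSI2 by 0.90 (limma adjusted p = 0.00829 and 0.0109, 37.4% of all genes called), while LSI6 at -0.26 was not called (limma adjusted p = 0.283). Without WT low Pi root replicate 1 these were 0.64 for LSI1 and 0.59 for LSI2, and both remained called, but the call of LSI2 ended when these 2 groups were fitted alone (limma adjusted p = 0.0548). Ordered by mean level, LSI1 in roots ran from bHLH6-OV through spx4 and WT high Pi to WT low Pi, and only the step to low Pi had no overlap between neighbours. LSI2 ran from bHLH6-OV through WT high Pi and spx4 to low Pi. LSI6 ran from low Pi through spx4 and WT high Pi to bHLH6-OV, with overlap at each step but the last.

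In shoots LSI1 and LSI6 moved in opposite directions at low Pi. LSI1 stood at 8.21, 9.11 and 13.6 FPKM in WT low Pi shoots, against 26.2, 28.7 and 24.9 in WT high Pi shoots. LSI6 stood at 90.6, 63.9 and 67.9 FPKM in low Pi shoots, against 23.4, 24.04 and 28.5 in high Pi shoots. Neither gene overlapped between the groups. LSI1 fell by a log2 fold change of -1.32 (SE 0.20, interval -1.77 to -0.87, limma adjusted p = 0.00034, lower in 3 of 3 libraries). LSI6 rose by 1.503 (SE 0.16, interval 1.14 to 1.86, limma adjusted p = 2.73e-05, higher in 3 of 3 libraries). Both tested members were called, where 48.2% of all 19990 genes tested in shoots were. Without WT low Pi shoot replicate 1 the changes were -1.18 for LSI1 (limma adjusted p = 0.00106) and 1.35 for LSI6 (limma adjusted p = 3.51e-05).

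bHLH6-OV shoots showed the same opposition at a smaller size. LSI6 stood at 49.1, 47.0 and 40.5 FPKM, above all 3 WT high Pi shoots, and rose by a log2 fold change of 0.82 (SE 0.16, interval 0.46 to 1.18, limma adjusted p = 0.00336, higher in 3 of 3 libraries). LSI1 stood at 11.7, 19.0 and 21.4 FPKM, below all 3 WT high Pi shoots, and fell by -0.63 (SE 0.20, interval -1.08 to -0.18, limma adjusted p = 0.0377, lower in 3 of 3 libraries). Here 31.3% of all genes were called. The call of LSI1 ended with TPM scaling (-0.42, limma adjusted p = 0.0854), with no filter on low genes (limma adjusted p = 0.0639) and without any 1 of 5 libraries, and without bHLH6-OV shoot replicate 1 the change was -0.38. Relative to the median of all genes, which was -0.05 in the main scaling and 0.15 with TPM scaling, LSI1 was the lower and LSI6 the higher under both.

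The sum of the 45 shoot markers was 26926 to 48430 FPKM in bHLH6-OV shoots, 63330 to 80389 in spx4 shoots, 14202 to 46707 in WT low Pi shoots and 45738 to 59639 in WT high Pi shoots. None of the 26 shoot markers tested in shoots was called in bHLH6-OV, beside 31.3% of all genes. In WT at low Pi 5 were called lower and 1 higher, beside 48.2% of all genes called in either direction. The part of these markers in the values of LSI1 and LSI6 was not tested. The root marker RCc3, more abundant than LSI1 in WT roots, stood at 0 to 0.552 FPKM over the shoot libraries, where LSI1 stood at 8.21 to 35.4. The root markers differed in their shoot share. In WT at high Pi the mean shoot level was 0.0136% of the root level for RCc3, 3.33% for IRT1 and 5.35% for AMT1;3. NRT2.1, NRT2.2 and AMT1;2 had a mean of 0 in those shoots. For LSI1 this share was 2.82%, and the part of root RNA in it was not tested.

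In spx4 shoots LSI1 stood at 34.4, 32.4 and 35.4 FPKM, above the 3 WT high Pi shoots with no overlap. Its log2 fold change of 0.35 was not called (interval -0.10 to 0.80, limma adjusted p = 0.456). LSI6 stood at 35.7, 26.7 and 23.96 FPKM, overlapping with WT, and its change of 0.17 was not called (interval -0.19 to 0.52, limma adjusted p = 0.682). No member was called and none had an unadjusted p under 0.05 in limma, with 2.14% of all genes called. Set against bHLH6-OV shoots, spx4 shoots had higher LSI1 by 0.97 (limma adjusted p = 0.00492) and lower LSI6 by -0.66 (limma adjusted p = 0.0115, 32% of all genes called). bHLH6-OV shoots in turn had higher LSI1 by 0.69 and lower LSI6 by -0.68 than WT low Pi shoots (limma adjusted p = 0.0162 and 0.00536, 47.7% of all genes called), and for LSI1 this call ended without any 1 of 4 libraries and when these 2 groups were fitted alone. By mean level LSI6 in shoots therefore ran from low Pi through bHLH6-OV and spx4 to WT high Pi, with overlap only at the last step, and LSI1 ran from spx4 through WT high Pi and bHLH6-OV to low Pi, with overlap only at the last step. LSI2 in shoots lay too low to be tested.

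**Figure D3:**
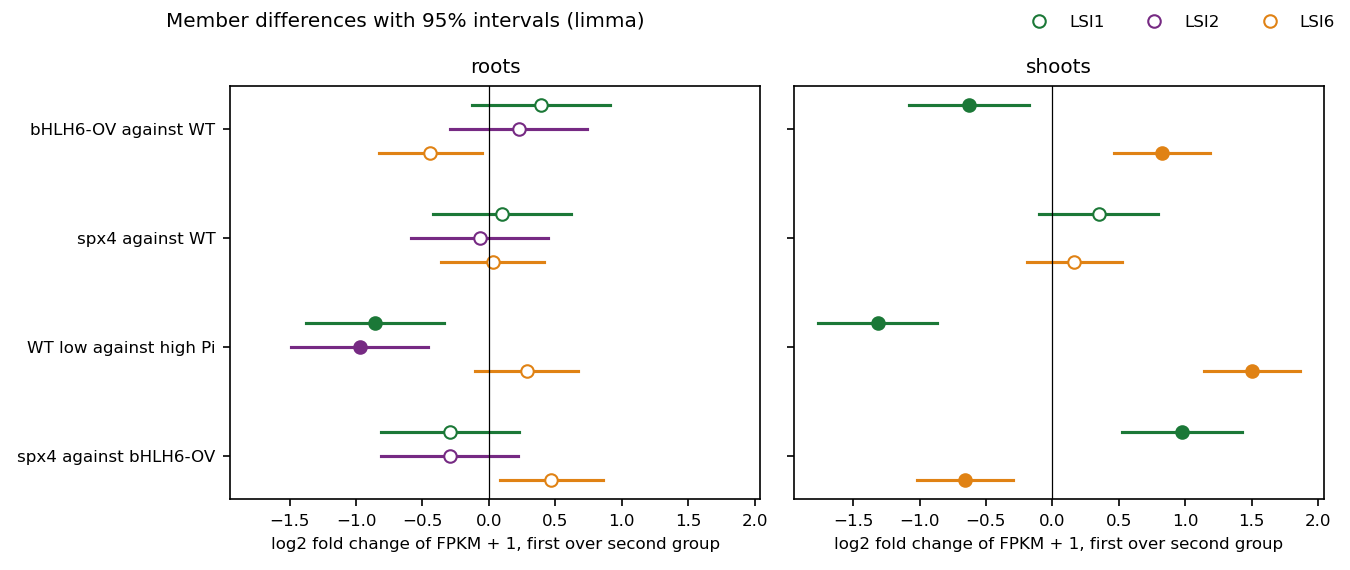
Log2 fold change of FPKM + 1 with its 95% interval for each member and comparison, first over second group, from limma. Filled points are called (adjusted p under 0.05); in shoots LSI1 and LSI6 lie on opposite sides of 0 for bHLH6-OV and for low Pi, and LSI2 is shown for roots alone.

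The response of LSI6 differed between roots and shoots. The log2 fold change of bHLH6-OV against WT in roots minus that in shoots was -1.26 for LSI6 (limma adjusted p = 0.000954) and 1.02 for LSI1 (limma adjusted p = 0.0257), and 0.18 for LSI2 (limma adjusted p = 0.738). Among all 24643 genes tested in both tissues 28.9% were called in this difference. For low against high Pi in WT the difference was -1.22 for LSI6 (limma adjusted p = 0.000861), -1.09 for LSI2 (limma adjusted p = 0.0203) and 0.46 for LSI1 (limma adjusted p = 0.287), where 37.1% of all genes were called. That of LSI2 compares a fall in roots with shoot levels below the pseudocount of 1. It carries mostly the root fall of -0.97, beside a shoot change of 0.12 in the fit with no filter. The call of this LSI2 difference was lost with a pseudocount of 0.1 (limma adjusted p = 0.368) and without WT low Pi root replicate 1 (-0.78) or WT low Pi shoot replicate 1 (-0.83). For LSI1, the call in bHLH6-OV was lost without any 1 of 3 libraries (0.77 to 0.96), and the low Pi difference passed without WT low Pi root replicate 1 (0.77, limma adjusted p = 0.0406). For spx4 no member was called and none had an unadjusted p under 0.05 in limma, with differences of -0.25 for LSI1, -0.04 for LSI2 and -0.14 for LSI6, where 1.98% of all genes were called.

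Ratios taken within a library do not depend on how libraries were scaled. LSI1 over LSI2 in roots was 1.35, 1.42 and 1.28 in bHLH6-OV, 1.33, 1.39 and 1.35 in spx4 and 1.31, 1.29 and 1.32 in WT at low Pi, against 1.24, 1.18 and 1.20 in WT at high Pi. Each of the 3 groups lay above WT high Pi without overlap, by 1.12-fold, 1.12-fold and 1.08-fold. Over the same 12 root libraries LSI1 itself spanned 335 to 1448 FPKM. LSI1 over LSI6 in shoots was 0.238, 0.405 and 0.528 in bHLH6-OV, 0.963, 1.22 and 1.48 in spx4 and 0.0906, 0.143 and 0.200 in WT at low Pi, against 1.12, 1.19 and 0.875 in WT at high Pi. In roots the same ratio averaged 18.9 in bHLH6-OV, 11.4 in spx4 and 5.11 in WT at low Pi, against 10.5 in WT at high Pi. Over these 9 comparisons with WT high Pi, a two-sided exact permutation test gave p = 0.1 wherever groups did not overlap, the smallest that 3 against 3 allows, and 0.129 after Benjamini-Hochberg adjustment, so none passed.

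**Figure D4:**
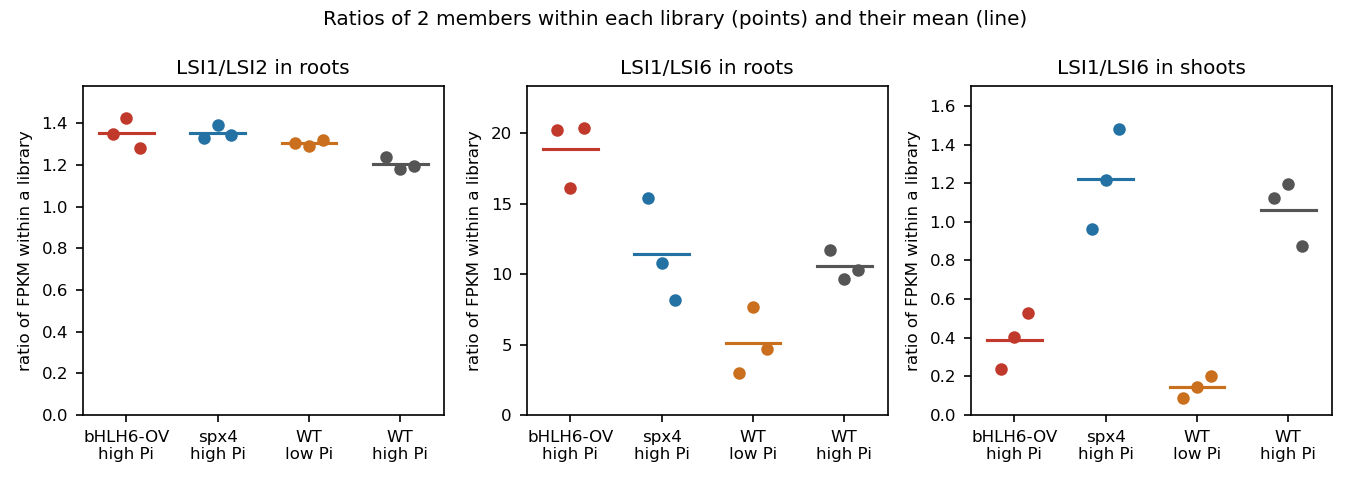
FPKM of one member over another within each library (points) and the group mean (line). LSI1 over LSI2 in roots stays between 1.18 and 1.42 in all 12 libraries, whereas LSI1 over LSI6 differs severalfold between groups in both tissues.

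Over the 12 root libraries, LSI1 and LSI2 had the Pearson correlation 0.989 on log2(FPKM + 1). Among 14001 genes with a mean of at least 5 FPKM, LSI1 was the gene most like LSI2, and LSI2 was the third most like LSI1. The 2 ahead of it were LOC_Os12g05680 at 0.994 and LOC_Os09g31390 at 0.992, both described as holding a transcription factor TGA-like domain. The next were LOC_Os05g51420, without a description, and LOC_Os01g64700, with an F-box domain, both at 0.989. The other genes most like LSI2 were LOC_Os08g02490 at 0.987, LOC_Os06g36450, described as Ferroporti-1, at 0.986, LOC_Os04g54180, with a protein kinase domain, at 0.986 and LOC_Os02g34650 at 0.985. LSI3 ranked 29 for LSI1 at 0.977 and 32 for LSI2 at 0.970. The libraries fall into 4 groups of 3 and share their group differences, so these values describe the pattern over groups and carry no test.

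LSI6 followed another pattern in roots, with a correlation of -0.64 with LSI1 and with LSI2. The genes most like it were LOC_Os08g44760 at 0.964, LOC_Os07g47990, a haem peroxidase, at 0.950, LOC_Os03g62730, a regulatory B subunit of protein phosphatase 2A, at 0.950, LOC_Os06g30730, an ABC-2 type transporter, at 0.944 and LOC_Os05g13330 at 0.941. The peroxidase stood at 150 FPKM in bHLH6-OV roots, 209 in spx4 roots and 291 in WT low Pi roots, against 233 in WT high Pi roots. This order matched that of LSI6 save for spx4 and WT at high Pi, whose replicates overlapped for LSI6.

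The other NIP aquaporins were far less abundant than LSI1 in roots. NIP3;1, known as a boric acid channel in rice, averaged 31.8 ± 0.815 FPKM in bHLH6-OV roots, 45.1 ± 4.21 in spx4 roots and 45.5 ± 2.46 in WT low Pi roots, against 54.1 ± 0.504 in WT high Pi roots (SD, n = 3 each). It fell in bHLH6-OV roots (log2 fold change -0.75, limma adjusted p = 9.62e-05) and in low Pi roots (-0.25, limma adjusted p = 0.0315), and at -0.26 in spx4 roots it was not called (limma adjusted p = 0.129). In shoots it rose in bHLH6-OV, to 7.22 ± 1.19 FPKM against 3.97 ± 0.168 in WT (log2 fold change 0.72, limma adjusted p = 0.00136), and at low Pi, to 5.46 ± 0.504 FPKM (SD, n = 3; limma log2 fold change 0.38, adjusted p = 0.0257). NIP1;3 stood between 6.33 and 9.24 FPKM as a mean in all 8 groups and was not called against WT high Pi in any.

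The remaining members of that family stood mostly under a few FPKM. NIP1;2 fell to 0.704 ± 0.106 FPKM in bHLH6-OV roots and rose to 4.14 ± 0.636 in WT low Pi roots, against 1.45 ± 0.127 in WT high Pi roots (SD, n = 3, limma adjusted p = 0.00555 and 2.35e-05). NIP3;2 averaged 2.75 ± 1.15 FPKM in low Pi roots, against 0.536 ± 0.124 in high Pi roots (SD, n = 3). It passed the filter of a mean of 1 FPKM only through the low Pi group, with a mean of 0.445 over the other 9 root libraries, so its test is not given. Its neighbour NIP3;3 averaged 17.0 ± 17.6 FPKM in bHLH6-OV roots, 6.52 ± 4.24 in spx4 roots and 3.54 ± 1.58 in low Pi roots, against 5.37 ± 0.856 in WT high Pi roots (SD, n = 3), and was not called in any of the 3. How reads were divided between these neighbours was not tested. NIP1;1 rose in low Pi shoots to 2.33 ± 1.20 FPKM, against 0.814 ± 0.238 in high Pi shoots (SD, n = 3, limma log2 fold change 0.82, adjusted p = 0.0112). Its low Pi libraries stood at 3.68 in replicate 1, which differed from its fellows, and at 1.94 and 1.37, against at most 1.08 at high Pi. A fit without replicate 1 is not given for NIP1;1. NIP1;4 averaged 2.60 ± 0.661 FPKM in bHLH6-OV shoots, against 0.341 ± 0.0971 in WT high Pi shoots (SD, n = 3). NIP1;4 passed the filter only through bHLH6-OV, with a mean of 0.574 over the other 9 shoot libraries, so its test is not given either. NIP4;1 averaged 1.26 FPKM in low Pi roots, against 0.541 in high Pi roots, and was too low to be tested.

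**Figure D5:**
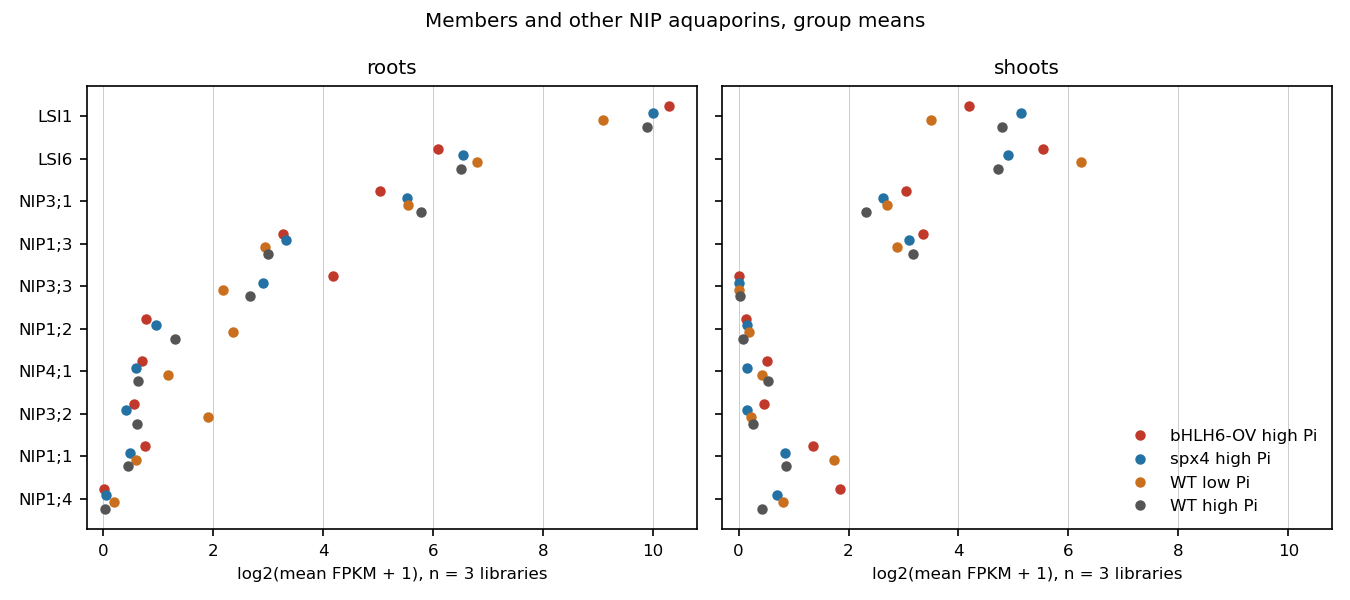
Group means of LSI1, LSI6 and 8 other NIP aquaporins on a log2(FPKM + 1) scale, roots left and shoots right, coloured by group (n = 3 libraries). LSI1 in roots lies above all other NIP genes, and in shoots LSI6 and LSI1 are the highest of the family.

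By count, 2 of the 5 other NIP genes tested in bHLH6-OV roots were lower, none of 5 was called in spx4 roots (2 at an unadjusted p under 0.05 in limma), and at low Pi 2 were higher and 1 lower, 1 of the higher being NIP3;2, which the low Pi group alone had brought into the test. The share of all genes called was 18%, 2.46% and 31.4% in these comparisons. The median log2 fold change of these 5 was -0.06 in bHLH6-OV roots, -0.20 in spx4 roots and -0.06 at low Pi, beside -0.02, -0.00158 and 0.01 over all genes. In shoots 2 of the 4 tested were higher in bHLH6-OV, 1 of them NIP1;4, which bHLH6-OV alone had brought into the test, none was called in spx4 (1 at an unadjusted p under 0.05 in limma) and 2 were higher at low Pi. The share of all genes called was 31.3%, 2.14% and 48.2% there. These counts are a description of the genes that passed the filter. Of 22 other aquaporins tested in roots, 10 were lower and 1 higher in bHLH6-OV, none was called in spx4 (2 at an unadjusted p under 0.05 in limma), and 11 were lower and 4 higher at low Pi, beside 18%, 2.46% and 31.4% of all genes called in either direction. The median log2 fold change of these 22 was -0.38 in bHLH6-OV, -0.04 in spx4 and -0.34 at low Pi. Without WT high Pi root replicate 3 the calls in bHLH6-OV numbered 6. The aquaporin LOC_Os01g74450 averaged 98.3 ± 11.97 FPKM in bHLH6-OV roots and 38.1 ± 13.7 in low Pi roots, against 201 ± 18.8 in WT high Pi roots (SD, n = 3, limma adjusted p = 0.00972 and 1.67e-05). In shoots 2 of the 16 tested were higher and 2 lower in bHLH6-OV, and 5 were higher and 5 lower at low Pi, beside 31.3% and 48.2% of all genes. The 4 calls in bHLH6-OV shoots numbered between 1 and 8 under the alternatives.

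LSI3 moved with LSI1 and LSI2 in low Pi roots. It stood at 33.7, 82.0 and 54.9 FPKM at low Pi, against 108, 116 and 116 at high Pi, with replicate 1 again the lowest, and fell by a log2 fold change of -1.07 (SE 0.27, limma adjusted p = 0.0118, lower in 3 of 3 libraries). In bHLH6-OV roots it stood at 152, 157 and 124 FPKM (0.34, limma adjusted p = 0.427) and in spx4 roots at 166, 134 and 94.6 (0.18, limma adjusted p = 0.879). CASP1 fell in low Pi roots to 41.0 ± 3.97 FPKM, against 66.6 ± 1.42 at high Pi (SD, n = 3; limma log2 fold change -0.69, adjusted p = 0.000189). ABCG5, a transporter needed for suberin in the root hypodermis of rice, rose to 52.4 ± 7.43 FPKM, against 35.1 ± 1.97 at high Pi (SD, n = 3; limma log2 fold change 0.56, adjusted p = 0.0129). The other 4 of the 6 barrier and patterning genes, SHR1, SCR1, SCR2 and CYP86B3, were not called at low Pi. None of the 6 was called in bHLH6-OV or spx4 roots, with 0 and 1 at an unadjusted p under 0.05 in limma. Of the 6 root markers tested, 5 were lower at low Pi, while RCc3 stood at 2270 ± 274 FPKM, against 2247 ± 104 at high Pi (SD, n = 3). In bHLH6-OV roots 2 of the 6 were called lower, and in spx4 roots 1 (3 at an unadjusted p under 0.05 in limma). The share of all genes called was 31.4% at low Pi, 18% in bHLH6-OV and 2.46% in spx4. RCc3 averaged 1293 FPKM in bHLH6-OV roots and 1987 in spx4 roots. The part of these markers in the values of LSI1 and LSI2 was not tested.

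A list of 8 genes held LSI3, the boron exporter BOR1 and genes of arsenic handling, arsenite being another substrate of the silicon path. The arsenate reductases HAC4 and HAC1;1 fell in low Pi roots, HAC4 to 24.8 ± 3.38 FPKM against 60.9 ± 7.04 at high Pi, and HAC1;1 to 27.8 ± 4.56 against 48.4 ± 2.03 (SD, n = 3, limma adjusted p = 6.82e-05 and 0.00114). HAC1;2 rose there to 5.66 ± 0.712 FPKM, against 2.54 ± 0.166 (SD, n = 3, limma adjusted p = 0.000402). In all, 4 of the 8 genes of this list, LSI3 included, were lower and 1 higher at low Pi, beside 31.4% of all genes called in either direction, and none was called in bHLH6-OV roots (1 at an unadjusted p under 0.05 in limma) or in spx4 roots (0 at that level in limma). In shoots HAC1;2 averaged 17.6 ± 3.88 FPKM in bHLH6-OV, 151 ± 25.5 in spx4 and 1.84 ± 0.157 in WT at low Pi, against 3.29 ± 0.665 in WT at high Pi (SD, n = 3, limma adjusted p = 7.05e-06, 4.11e-09 and 0.014). It was the only 1 of the 6 genes of this list tested in spx4 shoots that was called, beside 2.14% of all genes. HAC1;1 fell in low Pi shoots to 2.53 ± 0.657 FPKM and in bHLH6-OV shoots to 4.87 ± 1.19, against 8.76 ± 0.294 in WT high Pi shoots (SD, n = 3, limma adjusted p = 2.26e-05 and 0.00442).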

How the data were processed

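Roots and shoots of rice seedlings were profiled by RNA sequencing. Per the submitters' processing notes, HISAT2, StringTie, featureCounts 1.5.0-p3 and DESeq2 were used, and the genome build is not given in the sources used here. The authors deposited FPKM per gene with gene length. Multiplied by gene length and divided by a unit found for each library, all deposited FPKM (100%) came out as whole reads within 0.01, which gave the reads behind each value (21.0 to 29.6 M per library). The authors' divisor relative to those reads was 1.15 to 1.30 for root libraries and 0.733 to 1.04 for shoot libraries, so scaling was varied.

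Genes with a mean of at least 1 FPKM were tested on log2(FPKM + 1), a scale that understates changes of low genes, with limma 3.58.1 in R 4.3.3 (robust empirical Bayes with a trend, 1 mean per group). Each tissue was fitted over its 12 libraries and the tissue comparisons over all 24, and p-values were adjusted by Benjamini-Hochberg over all genes. The fit was also run on simulated data, and the outcome is not given here. Ratios were tested by exact permutation with scipy 1.17.1, and tables and figures were made with Python 3.11.15, pandas 2.3.3, numpy 2.4.6 and matplotlib 3.10.9.

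The members and gene lists were chosen with earlier results of these data known. Of 32 symbols with a locus, 20 were in the RefSeq gene table (assembly ASM3414082v1) and lay within 1 Mb on the same chromosome, after the loci of NIP1;2 and NIP4;1 had been exchanged. Other lists came from words in the deposited descriptions. Genes named from a list were called, had no overlap between replicates and at least 5 FPKM in 1 group, at most 4 per list and comparison, and NIP genes were named from 1 FPKM. The likeness ranking named the 5 highest Pearson correlations among genes of at least 5 FPKM. A planned search of promoter motifs was not run. Same-numbered libraries deviated together in every pair only for bHLH6-OV and spx4 roots (correlations of 0.23 to 0.48), from the values and not the labels. Alternatives were a pseudocount of 0.1, no filter, TPM and median-of-ratios scaling, a replicate block, 2 groups alone and leaving out each library.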

Additional observations from a re-analysis of the deposited data

Results flagged for a closer look

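The response to bHLH6 overexpression differed between tissues for LSI1 and LSI6, by the test of the difference itself. The log2 fold change in roots minus that in shoots was 1.02 for LSI1 (SE 0.33, limma adjusted p = 0.0257), with 0.39 in roots, which was not called, and -0.63 in shoots. This call ended without any 1 of 3 libraries (0.77 to 0.96, adjusted p up to 0.0821 in limma), and the shoot call ended with TPM scaling. The difference was -1.26 for LSI6 (SE 0.25, limma adjusted p = 0.000954), with -0.44 in roots and 0.82 in shoots. All 3 bHLH6-OV root libraries lay above WT for LSI1 and below WT for LSI6, and all 3 shoot libraries lay the other way. Neither root change was called, and the share of all genes whose replicates likewise did not overlap was not counted.

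The response to low Pi in WT also differed between tissues for LSI6, by -1.22 (SE 0.25, limma adjusted p = 0.000861), with 0.28 in roots and 1.503 in shoots. For LSI2 it differed by -1.09 (SE 0.35, limma adjusted p = 0.0203), with -0.97 in roots and under 1 FPKM in every shoot library. Shoot levels lay under the pseudocount of 1 and the shoot change was 0.12 with no filter, so this value mostly restates the root fall. Its call ended with a pseudocount of 0.1 (limma adjusted p = 0.368) and without WT low Pi root replicate 1 (-0.78) or WT low Pi shoot replicate 1 (-0.83).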

How the results depend on the processing

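With settings other than left-out libraries, 206 values of the members kept their direction and their side of the threshold. Of the other 7, LSI1 in bHLH6-OV shoots lost its call with no filter (-0.63) and with TPM scaling (-0.42). Fitting 2 groups alone ended the calls of LSI2 in spx4 against WT low Pi roots (0.90) and of LSI1 in bHLH6-OV against WT low Pi shoots (0.69). A pseudocount of 0.1 ended the call of the LSI2 difference between tissues at low Pi (-1.12, limma adjusted p = 0.368), and the LSI2 difference for spx4 turned to 0.065 with that pseudocount and to 0.011 with TPM scaling. The cause was not tested.

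Leaving out 1 library changed the side of the threshold or the sign in these ranges: LSI1 in roots from -1.09 to -0.54 at low Pi, LSI2 from -0.15 to 0.053 and LSI6 from -0.064 to 0.20 in spx4 roots, and LSI6 from 0.31 to 0.64 in spx4 against bHLH6-OV roots. LSI1 in shoots ranged from -0.79 to -0.38 in bHLH6-OV against WT and from 0.53 to 0.94 in bHLH6-OV against WT low Pi. Root minus shoot, LSI1 ranged from 0.77 to 1.18 in bHLH6-OV and from 0.22 to 0.77 at low Pi, LSI2 from -0.12 to 0.080 in spx4 and from -1.33 to -0.78 at low Pi, and LSI6 from -0.25 to 0.036 in spx4. In spx4 roots the turned values were 0.053 for LSI2 and -0.063, -0.049 and -0.064 for LSI6, and in the spx4 difference 0.080, 0.038 and 0.037 for LSI2 and 0.036 and 0.025 for LSI6.

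The replicate block changed no call of a member: LSI1 in roots at low Pi stayed at -0.86 (limma adjusted p = 0.0273). With the replicate block in the 2 line groups alone, an alternative added after seeing the data, spx4 against bHLH6-OV roots gave -0.29 for LSI1, -0.29 for LSI2 and 0.47 for LSI6 (limma adjusted p = 0.184, 0.178 and 0.185). TPM scaling moved the median of all genes in shoots from -0.05 to 0.15 in bHLH6-OV against WT, and the calls from 2801 higher and 3465 lower to 4425 higher and 1444 lower. At low Pi in shoots they moved from 4441 higher and 5193 lower to 4805 higher and 3434 lower, and in spx4 against bHLH6-OV shoots from 3652 higher and 2751 lower to 1069 higher and 6323 lower. Of 432 counts of calls in gene lists, 28 moved by over 1.5 times, 11 of them for other aquaporins in bHLH6-OV shoots (4 calls, 1 to 8 under the alternatives). The other NIP calls moved in 7, with 3 calls in low Pi roots (1 to 4), 2 in bHLH6-OV shoots (1 to 3) and 2 in low Pi shoots (1 to 3). The remaining 10 fell on other aquaporins in bHLH6-OV roots (11 calls, 6 to 12), barrier genes in low Pi roots (2 calls, 1 to 3), and 5 counts of 0, which reached 1. With 3 libraries per group and 0 to 50 reads per shoot library, no difference in LSI2 was detectable in shoots; with no filter its log2 fold changes against WT high Pi were 0.05, -0.03 and 0.12 for bHLH6-OV, spx4 and WT low Pi.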
